A study of Drosophila melanogaster with 24 samples.

Results

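The larval serum and fat body protein genes are 6 genes of Drosophila melanogaster, namely Lsp1alpha, Lsp1beta and Lsp1gamma, which encode the subunits of Larval serum protein 1, Lsp2, which encodes Larval serum protein 2, and Fbp1 and Fbp2, which encode Fat body proteins 1 and 2. They were taken by symbol and FlyBase identifier, and all 6 were found among the 17611 genes of the count table. They were chosen because such larval transcripts were seen in a single library of adult flies, replicate 3 of the CWOFP group (control flies kept without transferred gut content), so the values of that library are given here as a description and were not tested.

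Larval serum proteins are hexameric storage proteins of the arthropod hemocyanin superfamily. The fat body of the third-instar larva makes them and releases them into the hemolymph, and shortly before pupariation the fat body takes them up again and keeps them as protein granules that supply amino acids for building adult tissue. Fbp1 encodes the receptor through which the fat body takes up serum protein, and its transcription depends on the moulting hormone ecdysone and its receptor, EcR with usp. Fbp2 encodes a fat body protein related in sequence to alcohol dehydrogenase. The larval fat body itself is lost in the first days of adult life, and the adult fat body then makes other secreted proteins, including, in females, the yolk proteins Yp1, Yp2 and Yp3.

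The study asked how gut microbiota linked to a Parkinson's disease model act on the fly transcriptome, by RNA sequencing of adult w1118 flies of both sexes in 6 groups of 3 libraries, 18 in all. CTRL flies were placed on DMSO-containing medium and PD flies on medium with 250 µM rotenone, an inhibitor of mitochondrial complex I, from 7 days after eclosion for 7 days, and were sampled at day 7 of the experiment (14 days old). This follows the title of each sample and the paper's methods, while the general protocol text of the labels names rotenone for every sample, the DMSO controls included. The other groups went on for 7 more days without rotenone and were sampled at day 14 (21 days old): CWFP were control flies whose medium carried 50 µL of PD-fly gut content, CWOFP control flies without gut content, PWFC rotenone-fed flies whose medium carried 50 µL of CTRL-fly gut content, and PWOFC rotenone-fed flies without gut content. All groups share the w1118 background, an equal number of males and females per bottle and, except for the transfer, the yeast-glucose diet. The gut content was prepared by grinding whole, surface-disinfected flies, and PD here means flies fed a toxin, not a genetic model. The paper's methods call the 3 libraries of a group biological replicates, and the labels do not say whether they came from separate bottles. P-values measure the spread between these libraries.

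The libraries held 17920498 to 29165130 counts over genes (median 21859942). In every library, yolk protein transcripts summed to between 5657 and 28402 CPM (a gene's count divided by the total of its library and scaled to 1e6), and the list of male accessory gland genes to between 48.1 and 1790 CPM, so transcripts of adults of both sexes were present in all 18. The lowest accessory gland sum was that of CWFP replicate 1, and the other 17 libraries were at 265 to 1790 CPM. Whether the share of males differed between libraries was not tested. In whole-fly RNA, fewer cells of a type and less RNA per cell cannot be told apart. A library with 0 counts of a gene can hold up to 3 counts' worth of it, which is between 0.103 and 0.167 CPM at these depths. Confidence intervals given below are exact Clopper-Pearson 95% intervals and, like this limit, cover counting error only.

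The 6 genes lie at 6 separate places on 3 chromosomes, given here on the dm6 assembly. Lsp1alpha (FBgn0002562) is on the plus strand of X from 12490291 to 12492982, Lsp1beta (FBgn0002563) on the plus strand of 2L from 898500 to 901316, and Lsp1gamma (FBgn0002564) on the plus strand of 3L from 66430 to 68995. Lsp2 (FBgn0002565) is on the plus strand of 3L from 12129393 to 12131869, Fbp1 (FBgn0000639) on the minus strand of 3L from 14094589 to 14098053, and Fbp2 (FBgn0000640) on the plus strand of 2L from 9426784 to 9427917. Their exons add up to between 1074 bp (Fbp2) and 3465 bp (Fbp1). Lsp2 is overlapped by an antisense RNA gene on the minus strand, asRNA:CR11538, which held 2 counts in CWOFP replicate 3 and 0 to 7 elsewhere. Fbp2 overlaps at its 3' end with CG42847 on the same strand, which held 254 counts in CWOFP replicate 3 and 11 to 447 in the other libraries. Whether counting used the strand, and how it split reads in the overlaps, is not given in the sources used here, so the counts of Lsp2 and Fbp2 carry that uncertainty.

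In 17 of the 18 libraries 5 of the 6 genes were at 35 counts or fewer, while Lsp1beta was found in every library at 10 to 1997 counts. CWOFP replicate 3 stood apart: it held 2469 counts of the 6 genes, or 115 CPM, and 5 of the 6 genes had their highest level of all libraries there. Of the 13764 genes with at least 10 counts in some library, 4.52% were highest in CWOFP replicate 3, and 0.16% were at 10 times or more the level of every other library. The corresponding counts for the members were 5 of 6 and 4 of 6, and since this library was what the genes were chosen on, nothing is read from the difference.

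**Figure D1:**
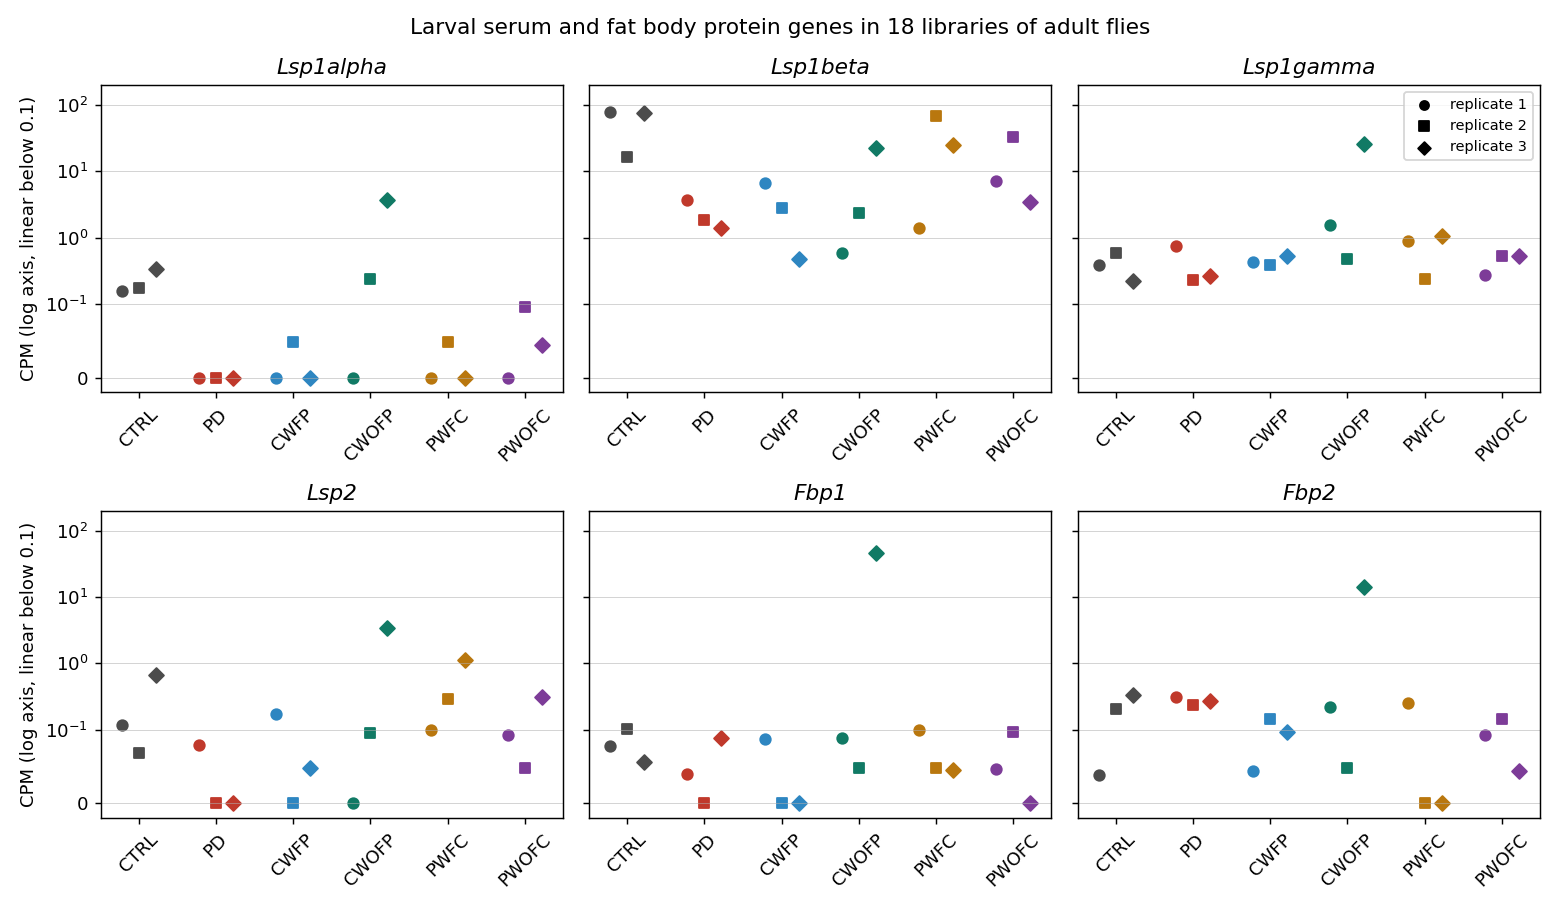
CPM of each gene in every library (vertical axis logarithmic above 0.1 and linear below, groups along the horizontal axis, marker shape for the replicate number). The CWOFP replicate 3 diamond is the highest point in every panel except Lsp1beta, where CTRL and PWFC libraries reach 77.4 and 67.9 CPM.

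Fbp1, the serum protein receptor, showed the widest gap. It had 979 counts in CWOFP replicate 3 (45.7 CPM, 95% interval 42.9 to 48.7) and between 0 and 3 counts in each of the other 17 libraries, with a median of 1. The next library, CTRL replicate 2, was at 0.103 CPM, 444 times lower. The 2 other CWOFP libraries had 2 and 1 counts, so the mean of the group was 15.3 CPM with replicate 3 and 0.0684 CPM without it. Outside this library Fbp1 was at or under the limit of 3 counts throughout, and no group could be ordered above another.

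Fbp2 followed with 304 counts in CWOFP replicate 3 (14.2 CPM, 95% interval 12.6 to 15.9), against 0 to 8 counts and a median of 3 in the other libraries. The next level, 0.335 CPM in CTRL replicate 3, was 42.4 times lower. Like Fbp1, Fbp2 kept a low count in most of the other libraries, and its 3 PD libraries (8, 6 and 6 counts) lay above its 3 PWOFC libraries (2, 3 and 1 counts) without overlap. Both sets are small counts, and 40.6% of all genes tested between PWOFC and PD were lower in PWOFC without overlap.

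Lsp1gamma had 552 counts in CWOFP replicate 3 (25.8 CPM, 95% interval 23.7 to 28.0) and between 4 and 35 counts elsewhere, with a median of 10. It was the only one of these 5 genes with counts in every library, and its next level, 1.56 CPM, was that of another CWOFP library, replicate 1, 16.5 times lower. The remaining CWOFP library had 10 counts, the same as the median elsewhere. The CWOFP mean was therefore 9.27 CPM with replicate 3 and 1.02 CPM without it, and the ranges of the other 5 groups overlapped from one to the next in order of their means, from PWFC at 0.727 CPM down to CTRL at 0.398 CPM.

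Lsp1alpha and Lsp2 reached lower levels in CWOFP replicate 3. Lsp1alpha had 79 counts there (3.69 CPM, 95% interval 2.92 to 4.60) and 0 to 6 elsewhere. Its next highest level, 0.335 CPM in CTRL replicate 3, was 11.0 times lower. Lsp2 had 72 counts (3.36 CPM, 95% interval 2.63 to 4.23) and 0 to 25 elsewhere. For Lsp2 the next library, PWFC replicate 3 with 25 counts (1.13 CPM), was 2.97 times lower, so Lsp2 was the member for which CWOFP replicate 3 was least apart among the 5.

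Lsp1beta was the exception. It had 483 counts in CWOFP replicate 3 (22.5 CPM, 95% interval 20.6 to 24.7), the sixth highest level of the 18 libraries, and was 1.20 times the pooled level of the other 17 libraries, where Fbp1 was 832 times and Lsp2 18.6 times their pooled level. In the other 17 libraries Lsp1beta made up 23.6% to 99.1% of the counts of all 6 genes, but 19.6% in CWOFP replicate 3. Summed without Lsp1beta, the other 5 genes had 92.7 CPM in CWOFP replicate 3 and between 0.467 and 2.22 CPM in every other library.

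Per length of exon, which allows levels of different genes to be set side by side, Fbp2 and Fbp1 were at the same level in CWOFP replicate 3, at 13.2 CPM per kb each. Lsp1gamma followed at 10.3 and Lsp1beta at 8.20 CPM per kb. Lsp1alpha at 1.40 and Lsp2 at 1.36 CPM per kb were lower than these 4 in that library. The 3 subunit genes of Larval serum protein 1 were thus not at equal transcript levels there.

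**Figure D2:**
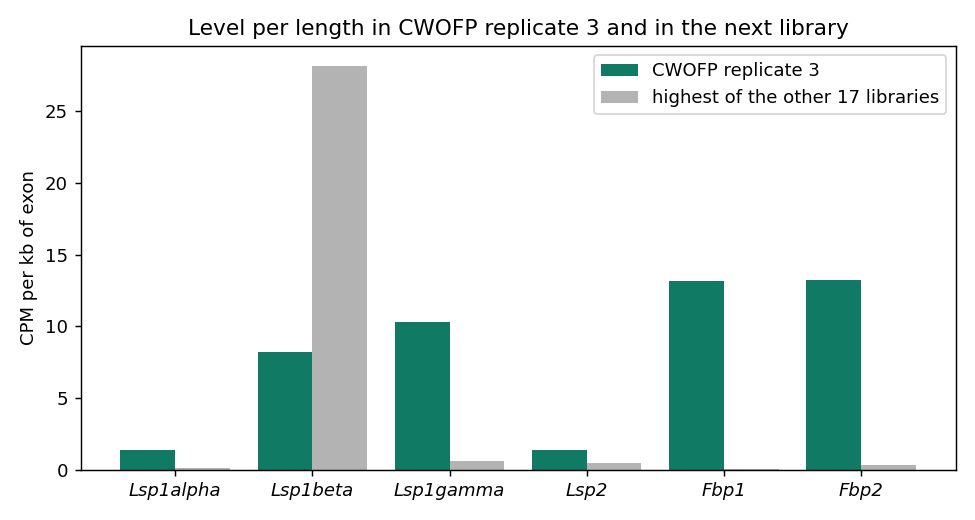
Level of each gene per kb of exon in CWOFP replicate 3 (green bars) and in the highest of the other 17 libraries (grey bars), in CPM per kb from a baseline of 0. Fbp1 and Fbp2 reach 13.2 CPM per kb in CWOFP replicate 3 with almost nothing elsewhere, while the Lsp1beta bar of another library is the tallest of the plot.

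The members' levels ran together over the libraries mainly where CWOFP replicate 3 entered. They were described by Pearson correlation over the 18 libraries, of log2 CPM computed on TMM-scaled library totals. Lsp1gamma and Fbp1 had r = 0.90 and Fbp1 and Fbp2 r = 0.89, and without CWOFP replicate 3 these were 0.27 and 0.13. Lsp1beta and Lsp2 had r = 0.58 over 18 libraries and 0.62 over 17, and Lsp1beta and Lsp1alpha 0.46 and 0.57. In small counts such as those of Fbp1, Lsp1alpha and Lsp2 outside CWOFP replicate 3 an r, low or high, carries little information.

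The genes whose pattern was most like the mean of the 6 members, by the same r over 18 libraries, were Cpr64Aa (0.93), CG31862 (0.91), CG12998 (0.91), CG34217 (0.90), CG17298 (0.89), CG34196 (0.89), obst-A (0.85), CR46423 (0.85), CG7214 (0.83) and CG42759 (0.82). Cpr64Aa encodes a cuticular protein with a chitin-binding motif, and obst-A a chitin-binding protein of the cuticle matrix. This ranking turned on 1 library: 0 of these 10 genes remained among the 10 most alike when CWOFP replicate 3 was left out, and 1, CG12998, when ranks were used in place of log values.

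CWOFP replicate 3 also held 18 genes outside the 6 at 10 times or more the level of every other library, with the members 22 in all. The highest were CG8736 at 409 CPM, CG7203 at 197 CPM and Cpr100A at 148 CPM. They were followed by CG12998 at 116 CPM, dyw at 94.7 CPM, Acp1 at 76.0 CPM and CG17298 at 57.8 CPM. CG7214 at 52.9 CPM, obst-A at 44.4 CPM and Cpr97Eb at 42.0 CPM completed the first 10. Of the 22, 4 belong to the Cpr family of cuticular proteins, and Acp1 encodes an adult cuticle protein. Fbp1 stood in this list between CG7214 and obst-A.

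Markers of larval and pupal tissues were read beside the members. The 15 larval cuticle genes measured summed to 1.59 CPM in CWOFP replicate 3, with 3 of the 15 at 0 in every library. Elsewhere they summed to between 0.185 and 46.4 CPM, the highest in CWOFP replicate 1 and the second highest of the 18 in CWOFP replicate 3. Of the 15, 3 had their highest level in CWOFP replicate 3, namely Lcp2, Lcp4 and Lcp9, each at 4 counts or fewer. The 11 salivary gland glue genes summed to 1.17 CPM in CWOFP replicate 3, the highest of all libraries, against 0.0907 to 0.427 CPM elsewhere, with 2 of the 11 at 0 throughout. Of the 25 glue gene counts in CWOFP replicate 3, 22 were from 1 gene, Sgs1. The 11 pupal cuticle genes were at 7.10 CPM against 2.57 to 33.8 CPM. Within this sum Pcp was at its lowest level of all libraries, 0.280 CPM against 0.800 to 6.21 CPM elsewhere. Ccp84Ab was at its highest, 3.69 CPM, and was next highest in CWOFP replicate 1 at 1.43 CPM. The 14 ecdysone-induced late genes were at 1.91 CPM against 1.11 to 18.2 CPM. CWOFP replicate 1, where the larval and pupal cuticle genes were highest, had 42 counts of the members other than Lsp1beta, and CWOFP replicate 3 had 1986. The adult fat body list (15 genes, with 1 at 0 in every library) summed to 4385 CPM in CWOFP replicate 3, within the 4063 to 9578 CPM of the other libraries, and the yolk proteins to 5657 CPM, below the 6573 to 28402 CPM of the others. The 16 early embryo genes summed to 282 CPM, the second highest of the 18 libraries (73.1 to 318 CPM in the others), and 6 of the 16 had their highest level in CWOFP replicate 3. The 3 phenoloxidase genes summed to 32.7 CPM, below the 47.0 to 169 CPM of the others. The part of these tissues in the members' levels was not tested.

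The ecdysone and juvenile hormone regulators, which include the receptor genes EcR and usp that act on Fbp1, did not stand apart with the members. EcR was at 59.5 CPM in CWOFP replicate 3, and the 2 other CWOFP libraries were at 56.1 and 57.4 CPM. usp was at 127 CPM there, between the 120.0 and 142 CPM of the other CWOFP libraries. All 16 regulators had counts in CWOFP replicate 3, and 1 of the 16 had its highest level there.

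Lsp1beta was the member with counts high enough in every group for its levels to be compared throughout. Its levels in the 3 CTRL libraries were 77.4, 16.5 and 74.4 CPM (1997, 480 and 1334 counts), and in the 3 PD libraries 3.71, 1.83 and 1.38 CPM (94, 47 and 31 counts). Every CTRL library lay above every PD library, and the lowest CTRL library was CTRL replicate 2. The group means were 56.1 ± 34.4 and 2.31 ± 1.24 CPM (SD, n = 3 each), 24.3-fold lower in PD.

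Rotenone feeding for 7 days was the comparison of PD with CTRL, and in it Lsp1beta fell by 4.62 on the log2 scale (SE 0.683) with an adjusted p of 0.0220 in edgeR's quasi-likelihood test with Benjamini-Hochberg adjustment over 12643 genes. A gene was called when its adjusted p was below 0.05 and its log2 fold change beyond 1 in size. Of the 6 members, 1 passed the filter on low counts, and it was called lower, while 2.25% of all genes tested were called and 1.16% were called lower. Groups that did not overlap, with PD lower, were found for 14.3% of all genes tested. The call was lost when CTRL replicate 1 (adjusted p = 0.125), CTRL replicate 3 (0.0861), PD replicate 2 (0.0885) or PD replicate 3 (0.0635) was left out, and when all 6 groups shared a spread (0.188), with a change of at least 4.32 on the log2 scale in each of these edgeR fits.

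The other 5 members were below the filter between PD and CTRL. Lsp1alpha had 4, 5 and 6 counts in CTRL and 0 in all 3 PD libraries. The pooled CTRL level was 5.04 times the limit of 3 counts over the PD group. This ratio leaves out the counting error of CTRL, so it is not a lower bound on the change. Without the filter Lsp1alpha was called too, with an adjusted p of 0.0464 in edgeR's quasi-likelihood test. Lsp2 had 3, 2 and 12 counts in CTRL and 2, 0 and 0 in PD, and the groups overlapped. Lsp1gamma had 31 counts over the 3 libraries of each group. Fbp1 had 6 counts over CTRL and 3 over PD, and Fbp2 13 and 20. For these last genes a difference was not detectable at this depth.

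At day 14 Lsp1beta spread widely within the rotenone-fed groups. The 3 PWFC libraries were at 1.39, 67.9 and 24.6 CPM (28, 1404 and 542 counts) and the 3 PWOFC libraries at 7.16, 33.2 and 3.47 CPM (155, 688 and 79 counts). The PWFC libraries held both the lowest and the highest of these 6 values, so the groups overlapped fully. Their means were 31.3 ± 33.8 and 14.6 ± 16.2 CPM (SD, n = 3 each).

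Gut content from control flies was the difference between PWFC and PWOFC. Lsp1beta had a log2 fold change of 1.16 (SE 1.30, adjusted p = 0.993) and Lsp1gamma of 0.71 (SE 0.604, adjusted p = 0.993) in edgeR's quasi-likelihood test with Benjamini-Hochberg adjustment. Of the 6 members 2 passed the filter and 0 were called, with none of the pair under 0.05 before adjustment and 0 called by DESeq2, and 0.0% of all 12026 genes tested were called, while 496 had an unadjusted p under 0.05 and DESeq2 called 82. Leaving out PWFC replicate 2 turned the Lsp1beta value to -0.05, and leaving out PWOFC replicate 2 raised it to 2.64. Lsp2 had 2, 6 and 25 counts in PWFC and 2, 1 and 7 in PWOFC, and Lsp1alpha 0, 1 and 0 against 0, 2 and 1.

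The rotenone-fed flies after 7 days on medium without rotenone, PWOFC, can be set against those sampled at the end of feeding, PD, although day, age and rotenone withdrawal cannot be told apart in this comparison. Lsp1beta was higher in 2 of the 3 PWOFC libraries (7.16 and 33.2 CPM) than in all PD libraries, and the third, at 3.47 CPM, lay under PD replicate 1 at 3.71 CPM. Its log2 fold change was 2.75 (SE 1.04, adjusted p = 0.0712) in edgeR's quasi-likelihood test and 2.86 (adjusted p = 0.00780) in DESeq2. Lsp1gamma had a log2 fold change of 0.17 (SE 0.532, adjusted p = 0.789). So 0 of the 2 members past the filter were called, 1 of them, Lsp1beta, had an unadjusted p of 0.0481, and DESeq2 called 1, while 33.0% of all genes tested were called by edgeR. Without PWOFC replicate 2 the Lsp1beta value fell to 1.30 (adjusted p = 0.0336), and without PWOFC replicate 3 it was 3.22 (adjusted p = 0.0103), both past the thresholds. The PD libraries enter both this comparison and that with CTRL, so the values are not independent.

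In the control flies at day 14 Lsp1beta was low apart from CWOFP replicate 3. The CWFP libraries were at 6.62, 2.76 and 0.484 CPM (152, 57 and 10 counts) and the CWOFP libraries at 0.581, 2.33 and 22.5 CPM (13, 49 and 483 counts). The mean of CWFP was 0.387 times that of CWOFP with all libraries and 2.26 times that of CWOFP without replicate 3, so this 1 library set the order of the groups. No test is given for the members in comparisons that use CWOFP.

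In the other members the same library set most of the size of the gap between these groups. With it, the CWOFP mean was 81.2 times that of CWFP for Lsp1alpha, 20.5 times for Lsp1gamma, 15.5 times for Lsp2, 526 times for Fbp1 and 50.7 times for Fbp2. Without it, these genes had sums of 1 against 5, 29 against 45, 5 against 2, 2 against 3 and 6 against 6 counts over the CWFP and the 2 remaining CWOFP libraries, in the same order. The mean of the remaining CWOFP libraries was then still the higher for Lsp1alpha, Lsp1gamma, Fbp1 and Fbp2, at 7.36, 2.26, 2.36 and 1.42 times that of CWFP, and the lower for Lsp2, at 0.640 times, and for all 5 the ranges overlapped. Against PWOFC, the CWOFP mean of Fbp1 was 321 times higher with replicate 3, and 3 counts over 3 PWOFC libraries stood against 3 counts over 2 CWOFP libraries without it.

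Over the 6 groups the order of mean Lsp1beta levels was CTRL, PWFC, PWOFC, CWOFP, CWFP and PD, from 56.1 to 2.31 CPM. Each group overlapped with its neighbour in this order. The place of CWOFP rested on replicate 3, without which its mean was 1.45 CPM, below that of PD. The PWOFC mean was then 10.05 times that of the 2 remaining CWOFP libraries, and the ranges did not overlap. This difference was not tested. With all libraries, CWOFP came first in the 5 other genes, each time with an SD above the mean.

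The yolk proteins, which the adult female fat body and the follicle cells secrete, were measured beside Lsp1beta. Their summed level was 23811, 14589 and 25001 CPM in CTRL, with the lowest value in replicate 2, as for Lsp1beta, and 6745, 7131 and 6701 CPM in PD. Yp1, Yp2 and Yp3 changed by -1.05, -1.80 and -2.0 on the log2 scale between PD and CTRL, with adjusted p of 0.0401, 0.00467 and 0.00627 in edgeR's quasi-likelihood test, and all 3 were called lower. The call of Yp1 was lost with upper-quartile normalization, with all 6 groups in the fit and without CTRL replicate 1, CTRL replicate 3 or any 1 of the PD libraries, with values from -1.26 to -0.85 over all alternatives, that of Yp2 without PD replicate 2, and that of Yp3 with all 6 groups in the fit. All 3 were called higher in PWOFC than in PD, by 1.21, 2.11 and 2.30, and Yp1 was not with upper-quartile normalization. Of all genes tested, 2.25% were called between PD and CTRL and 33.0% between PWOFC and PD. Over the 18 libraries Lsp1beta had r = 0.66, 0.63 and 0.68 with Yp1, Yp2 and Yp3, and over the 17 without CWOFP replicate 3 r = 0.82, 0.76 and 0.80. These are descriptions, and groups and library depth are shared by the points.

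**Figure D3:**
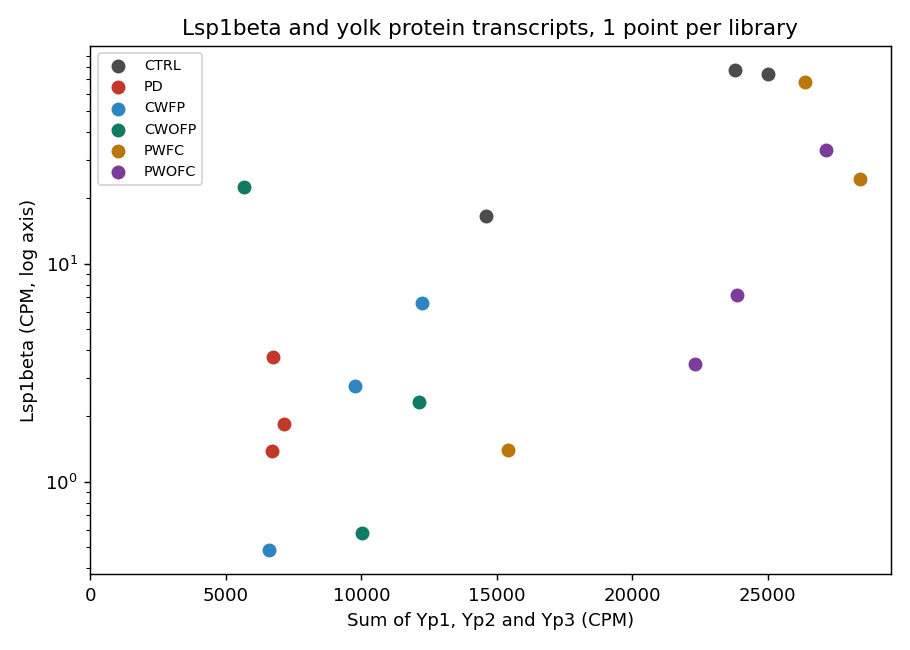
Lsp1beta (vertical axis, CPM, logarithmic) against the sum of Yp1, Yp2 and Yp3 (horizontal axis, CPM), 1 point per library coloured by group. The PD libraries lie at the lower left and 2 of the CTRL libraries at the upper right, while CWOFP replicate 3, at 5657 CPM of yolk protein and 22.5 CPM of Lsp1beta, lies away from the other points.

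The adult fat body list, 14 genes of which were tested, had 0 called between PD and CTRL by edgeR and 0 by DESeq2. Of these genes 4 were under 0.05 before adjustment, and the list had a median log2 fold change of -0.13 beside 0.05 over all genes. Of the accessory gland genes 0 of 9 tested were called by edgeR, 2 had an unadjusted p under 0.05 and DESeq2 called 1. Between PWOFC and PD, where 33.0% of all genes tested were called, 1 of the 14 adult fat body genes, the iron carrier Tsf1, was called lower (-1.45). Of the 9 accessory gland genes 1, Acp36DE, was called higher (1.15). Acp36DE was not called without PWOFC replicate 2 (0.82), with upper-quartile normalization (0.85) or with all 6 groups in the fit (1.16).

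The early embryo list had the largest number of calls of any list between PWOFC and PD, though all 3 yolk proteins were called too. In this comparison 33.0% of all genes tested were called. Of 12 early embryo genes tested 7 were called higher by edgeR, and DESeq2 called 10. The list median was 1.72 on the log2 scale beside -0.09 over all genes. The 7 were sna (4.63), Kr (3.17), hb (2.53), slam (2.42), run (1.99), ftz (1.86) and zen (1.58), most of which encode transcription factors that pattern the embryo. Lsp1beta had 2.75 in this comparison. Between PD and CTRL, where 2.25% of all genes tested were called, hb was called lower (-1.82, adjusted p = 0.0201 in edgeR's quasi-likelihood test). It was 1 of 11 tested, and 4 of the 11 were under 0.05 before adjustment. The pupal cuticle gene Pcp was called lower in PD than in CTRL (-1.80) and higher in PWOFC than in PD (1.47), where Ccp84Ag, of the same list, was called lower (-1.43). The calls between PD and CTRL were lost in 5 of 12 alternatives for hb and 7 of 12 for Pcp. Both were lost with all 6 groups in the fit and without CTRL replicate 1, CTRL replicate 3, PD replicate 1 or PD replicate 2. That of Pcp was also lost without PD replicate 3 and with upper-quartile normalization. Between PWOFC and PD the call of ftz was lost without PD replicate 3 and with all 6 groups in the fit. That of zen was lost without PD replicate 2, PD replicate 3 or PWOFC replicate 2. The calls of Pcp and Ccp84Ag were lost with all 6 groups in the fit, and that of Ccp84Ag also with DESeq2. The part of embryonic transcripts in the Lsp1beta values was not tested.

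Among the 16 ecdysone and juvenile hormone regulators, all tested, 1 was called higher and 1 lower between PD and CTRL. The median over the list was -0.38, and 2.25% of all genes tested were called. Hr38, a nuclear receptor gene, was higher by 1.23 (adjusted p = 0.0401) on the log2 scale and Hr4, an ecdysone-induced nuclear receptor gene, changed by -1.90 (adjusted p = 0.0170), in edgeR's quasi-likelihood test. Both calls were lost with all 6 groups in the fit and without CTRL replicate 3, PD replicate 1 or PD replicate 2, and that of Hr38 also without PD replicate 3. EcR and usp, which act on Fbp1, had changes of -0.70 and -0.58 with adjusted p of 0.117 and 0.0874. Between PWOFC and PD, EcR (1.19), usp (1.02), ftz-f1 (1.18) and Hr4 (2.12) were called higher, and Hr38 (-1.15) and Hr3 (-1.27) lower. That was 4 higher and 2 lower of 16, where 33.0% of all genes tested were called. The calls of EcR, usp and ftz-f1 were lost with upper-quartile normalization, where the median of all genes lay at -0.39 in place of -0.09, and that of usp also without PD replicate 1 or 2 or PWOFC replicate 1 or 2.

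In comparisons with CWOFP, where members were not tested, the genes of all lists were. Between CWFP and CWOFP 0 of 64 list genes were called by edgeR and 0 by DESeq2, and 6 were under 0.05 before adjustment. Between PWOFC and CWOFP 0 of 66 were called by edgeR and 8 by DESeq2, and 19 were under 0.05 before adjustment. Over all genes 0.0% and 0.0325% were called in these comparisons. Between PWFC and PWOFC 0 of 64 list genes were called by edgeR, 5 had an unadjusted p under 0.05, and DESeq2 called 1.

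**Figure D4:**
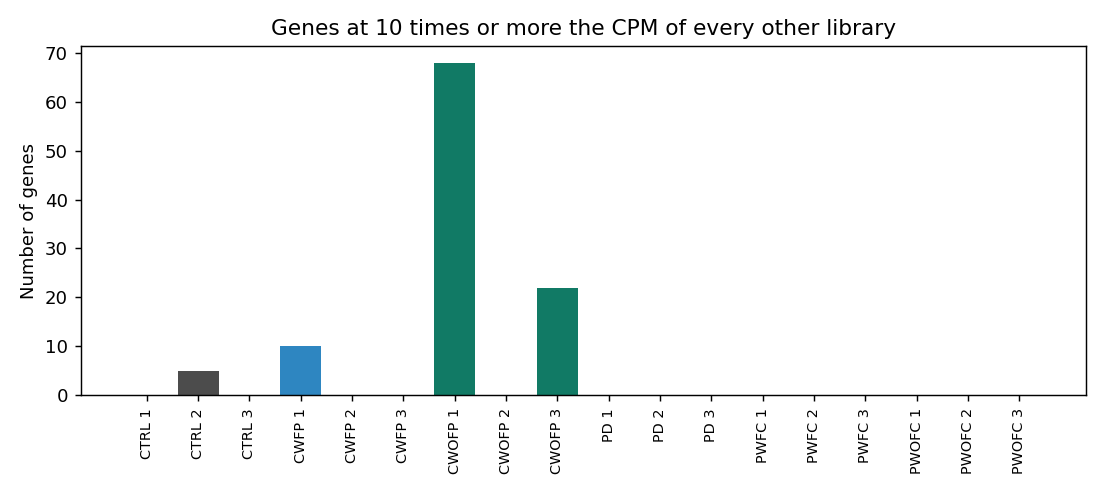
Number of genes (vertical axis, from 0) whose CPM in a library (horizontal axis) was 10 times or more that of every other library, among genes with at least 10 counts there. CWOFP replicate 1 has 68, CWOFP replicate 3 has 22, of which 4 are larval serum or fat body protein genes, CWFP replicate 1 has 10, CTRL replicate 2 has 5 and the others have 0.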

How the data were processed

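The authors trimmed reads with cutadapt, aligned them to dm6 with HISAT2 and counted them per gene with featureCounts; versions and the strand setting are not given in the sources used here, and the submitters' processing notes also name StringTie 1.3.1 and DESeq2 1.36.0. The deposited values are whole-number counts per gene, not normalized, in 18 libraries of 17920498 to 29165130 counts, of which this depth sets the precision of low genes. Of 17611 FlyBase IDs, 17556 had a symbol in the reference table, and gene positions came from the BDGP6.54 annotation. The 6 libraries of flies given patient or healthy human microbiota were not analysed here.

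CPM is the count divided by the library total and scaled to 1e6. Comparisons used edgeR 4.0.16 in R 4.3.3 (quasi-likelihood test, TMM scaling, filterByExpr with a minimum count of 10, robust fit, only the 6 libraries compared, Benjamini-Hochberg adjustment over all genes). The standard error was the log2 fold change divided by the square root of F. Correlations used log2 CPM on TMM-scaled library totals, with a prior count of 2. DESeq2 1.42.0 (adjusted p left missing where it gave none), RLE and upper-quartile scaling, no filter, all 6 groups in a fit, a replicate block and each library left out were tried as alternatives. Scripts were tested on simulated counts.

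The members and lists were chosen with earlier results of these data known. Named genes were all 6 members, the 10 genes most like their mean, up to 10 genes of CWOFP replicate 3 at 10 times the next library, and list genes called or of high level. In CWFP and CWOFP same-numbered libraries deviated together (r = 0.52, 0.27 and 0.39 over genes). A pairing of these libraries is not given in the sources used here, and the main fit used no block. With the replicate number as a block, 0 list genes were called. Whether the samples were paired was not tested.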

Additional observations from a re-analysis of the deposited data

How the results depend on the processing

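Between PD and CTRL the number of members called was 1, and it was 2 with no filter on low counts (Lsp1alpha added), 0 with all 6 groups in the fit and 0 to 1 with 1 library left out, lost with 4 of the 6. Lsp1beta kept its direction in every fit, at -5.14 to -4.32 with 1 library left out. Between PWOFC and PD, where 0 members were called, DESeq2 called 1, and leaving out 1 library gave 0 to 1. Lsp1gamma there reversed to -0.13 with upper-quartile normalization, and ran from -0.10 to 0.91 with 1 library left out. Between PWFC and PWOFC 0 members were called under every alternative, and Lsp1beta ran from -0.051 to 2.64 with 1 library left out, reversed without PWFC replicate 2. Between PWOFC and CWOFP the list genes called rose from 0 to 8 with DESeq2, 2 with all 6 groups in the fit and 1 with the replicate block, and were 0 to 1 with 1 library left out (1 without CWOFP replicate 2). The cause of these differences was not tested. Members highest in CWOFP replicate 3 stayed 5, and those at 10 times the next library 4, with TMM-scaled CPM.

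The 7 list genes called between PD and CTRL and the 20 called between PWOFC and PD kept their direction under every alternative; 0 of the 7 and 11 of the 20 stayed called under all. With the replicate number as a block, 1 member was called between PD and CTRL, where Lsp1beta had -4.45 (adjusted p = 0.0185 in edgeR), and 532 genes in place of 285; same-numbered libraries did not deviate together there (r = -0.30, 0.11 and 0.17). Over all genes the count between PD and CTRL was 675 with DESeq2, 485 with upper-quartile scaling, 468 with no filter, 25 with all 6 groups in the fit and 39 to 1648 with 1 library left out. Upper-quartile scaling moved the median of all genes from 0.05 to 0.23 there. Depth limits every member except Lsp1beta: outside CWOFP replicate 3 they had at most 35 counts in a library.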

Other observations

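Other libraries stood apart from the rest with genes that are not larval serum or fat body protein genes, chosen here after their values were seen. CWOFP replicate 1 had 68 genes at 10 times or more the level of every other library, led by TwdlM at 99.2 CPM, TwdlN at 66.6 CPM, CG13731 at 49.9 CPM and TwdlB at 46.2 CPM. Twdl (Tweedle) genes encode cuticle proteins, and the larval cuticle genes Lcp65Ag2 (23.1 CPM) and Lcp65Ag1 (15.8 CPM) were also among the 68. In that library Fbp1 had 2 counts and Lsp1gamma 35, the second highest Lsp1gamma count of the 18 libraries.

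CWFP replicate 1 had 10 such genes, led by Osi6 at 92.8 CPM, Osi7 at 76.2 CPM and Osi15 at 13.1 CPM, members of the Osiris family of insect transmembrane proteins. Fbp1 had 2 counts and Fbp2 1 count in this library.

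The genes most like Lsp1beta alone by Spearman's rho over the 18 libraries, also chosen after values were seen, were Cyp4s3 (0.86), Phyhd1 (0.83) and CG10237 (0.82). Abcd3, whose family transports fatty acids into peroxisomes, had a rho of 0.79, and it was not higher in CWOFP replicate 3 (208 CPM) than in every other library (up to 317 CPM).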
